A study of Rattus norvegicus with 8 samples.

Results

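The mevalonate pathway up to squalene was examined as a set of enzyme genes, given in the order of the reactions: Acss2, Acat2, Hmgcs1, Mvk, Pmvk, Mvd, Idi1, Fdps, the branch enzyme Ggps1, and Fdft1. The genes were chosen by name. A gene was counted as measured where the platform annotation gave its symbol, and no other, to a probe set of the deposited table. By that rule 8 of the 10 genes were measured, each by 1 probe set, among 18166 genes in all. Hmgcs1, Mvk and the enzyme that makes mevalonate between them were not analysed here.

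The data are 8 Affymetrix Rat Gene 2.0 ST arrays of spinal cord RNA. The animals were male Long Evans rats aged about 175 days. Per the labels, 4 arrays hold cord after injury at the thoracic level (SCI) and 4 hold cord after laminectomy without injury (sham). Both groups weighed about 400 g, recovered for 4 weeks on chow and then ate a high-fat diet (40% fat). The diet is shared and is not a comparison here. A study length of 8 weeks is given for both groups. One label places the tissue at thoracic segments 10 to 11 and another at 11 to 12, and how far it lay from the lesion is not stated. The labels name each array as its own sample without tying it to a numbered animal, so the p-values measure the spread between these samples. Values are log2 signal after RMA (robust multi-array average). A difference of 1 is a doubling, and levels of different genes cannot be set against each other because each probe set has its own efficiency. No detection calls were used, and the number of arrays limits the precision.

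Array medians lay between 3.73 and 3.81. The first principal component over all genes parted the groups (SCI -30.25 to -14.20, sham 19.62 to 25.27), and the second set SCI 3, sham 1 and sham 2 (-17.18 to -12.62) apart from the other arrays (4.53 to 14.79). Counts of called genes were therefore also made without these 3 arrays. For the tissue, 5 measured Hox genes of the thoracic cord and Chat, of motor neurons, averaged 5.63 to 5.86 on SCI arrays and 5.78 to 5.96 on sham arrays, and 4 forebrain genes averaged 2.70 to 2.93 on SCI arrays and 2.71 to 3.04 on sham arrays. None of these 10 genes was called between the groups in the main fit, and without detection calls their levels do not show which were expressed. Hoxb8 was lower on every SCI array than on every sham array (-0.36, limma adjusted p = 0.084). It was called with dim genes left out (0.029) and with a trended, robust variance model (0.026).

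Mevalonate pathway enzymes turn acetyl-CoA into isoprenoid units and join these into farnesyl diphosphate. From there squalene synthase commits the carbon to cholesterol, and geranylgeranyl diphosphate synthase leads it to lipid anchors of proteins and other isoprenoids. In the cord, cholesterol is a main lipid of myelin and is largely made locally, and the genes of the pathway are known targets of the sterol-sensing SREBP transcription factors.

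The promoter sequences are given as background, and their part in the changes was not tested. The RefSeq promoter windows (build GRCr8, 250 bases before to 50 after the start) matched 6 of the 8 measured genes: Acss2, Acat2, Mvd, Idi1, Fdps and Ggps1. Shown are those of Idi1 (chr17:66547475-66547774, minus strand) and Fdps (chr2:176804767-176805066, minus strand), the members with the largest differences among these 6, and that of the branch enzyme Ggps1 (chr17:55958500-55958799, plus strand), with the smallest. They are written 5′ to 3′ along the gene, and capitals mark CCAAT or its reverse ATTGG, the motif of the factor NF-Y.
Idi1: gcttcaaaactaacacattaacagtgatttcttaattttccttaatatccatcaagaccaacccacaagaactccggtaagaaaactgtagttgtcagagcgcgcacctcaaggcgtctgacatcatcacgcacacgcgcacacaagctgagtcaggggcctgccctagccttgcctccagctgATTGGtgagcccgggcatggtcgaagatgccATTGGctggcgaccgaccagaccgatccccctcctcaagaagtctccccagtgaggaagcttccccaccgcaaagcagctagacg
Fdps: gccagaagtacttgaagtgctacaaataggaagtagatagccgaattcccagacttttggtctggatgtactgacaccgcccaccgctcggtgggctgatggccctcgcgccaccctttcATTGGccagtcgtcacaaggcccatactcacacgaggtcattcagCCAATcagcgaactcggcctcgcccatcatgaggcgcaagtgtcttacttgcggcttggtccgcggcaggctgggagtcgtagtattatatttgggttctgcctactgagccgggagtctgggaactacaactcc
Ggps1: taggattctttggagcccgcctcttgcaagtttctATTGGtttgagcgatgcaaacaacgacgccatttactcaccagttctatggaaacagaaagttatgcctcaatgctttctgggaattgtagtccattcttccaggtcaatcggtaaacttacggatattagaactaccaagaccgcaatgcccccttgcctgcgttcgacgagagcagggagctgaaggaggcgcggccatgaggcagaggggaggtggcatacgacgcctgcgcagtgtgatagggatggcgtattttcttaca
CCAAT was found on either strand in 5 of the 6 windows, against 37.5% of 33469 promoter windows of the same length. Idi1, Fdps and Mvd held 2 matches each, as did 11.2% of all windows (2 or more), Acss2 and Ggps1 held 1, and Acat2 none. The GC box GGGCGG was in 4 of 6 windows (Acss2, Acat2, Mvd and Fdps), against 33.1% of all. The SREBP motif was searched in 1 form, TCACNCCAC, which was in none of the 6 and in 1.12% of all. Other forms of the SREBP site, also within these windows, were not searched. A match is only a run of letters, and a window without one says nothing of a factor elsewhere.

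Setting SCI against sham cord asks how the pathway genes differed after injury. Of the 8 measured genes, 6 fell in SCI cord and 0 rose (limma, Benjamini-Hochberg adjusted p under 0.05 over all genes), and 2, Acat2 and Ggps1, did not pass. Over all genes 7.06% were lower by the same rule. On 7 of the 8 genes every SCI array was below every sham array, against 10.9% of all genes (without SCI 3, sham 1 and sham 2, also 7 genes, against 21.2%). The changes ran from -1.71 in Fdft1 to -0.28 in Ggps1, with a median of -0.84 beside a median of -0.01 over all genes. Without SCI 3, sham 1 and sham 2 the number that fell was 5, against 284 lower of all 18166 genes. RNA came from whole tissue, so fewer cells of a type and less RNA per cell cannot be told apart.

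**Figure D1:**
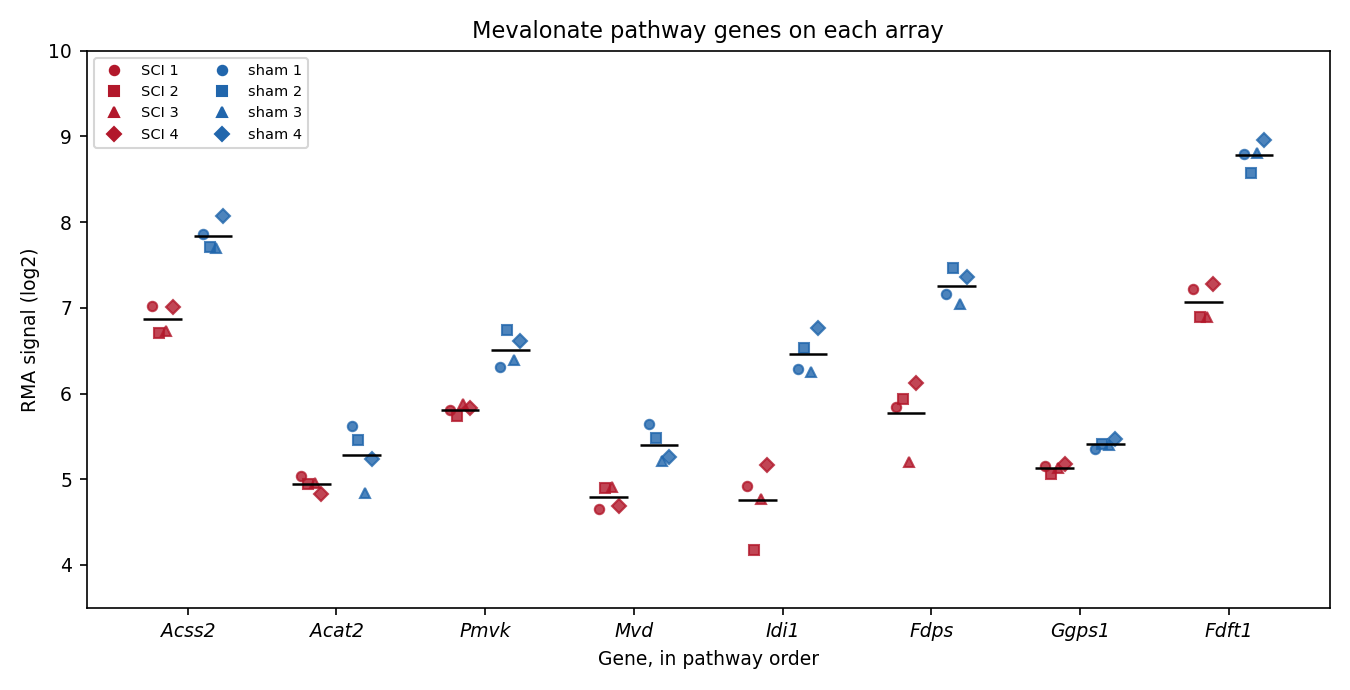
RMA signal (log2, vertical axis) of the 8 measured genes in pathway order on each array. Red symbols are the 4 SCI arrays, blue symbols the 4 sham arrays, and bars the group means. The groups overlap in Acat2 alone, and the gap is widest in Fdft1.

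The first genes supply and condense acetyl-CoA. Acss2 encodes the synthetase that makes cytosolic acetyl-CoA from acetate. Its values were 7.02, 6.71, 6.72 and 7.01 on the SCI arrays, against 7.87, 7.72, 7.70 and 8.07 on the sham arrays. The groups lay apart, with SCI signal at 51.0% of sham signal. The change was -0.97 (SE 0.12, adjusted p = 5.7e-04, limma).

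Acat2 encodes the cytosolic thiolase that joins a pair of acetyl-CoA molecules, the first step toward mevalonate. It had 5.03, 4.95, 4.96 and 4.83 in SCI cord, against 5.62, 5.46, 4.84 and 5.24 in sham cord. Sham 3 lay among the SCI arrays, and the other sham arrays were above all of them. The difference of -0.34 did not pass (SE 0.15, 95% confidence interval -0.68 to -0.005, adjusted p = 0.18). Acat2 passed without sham 3, at -0.50 (adjusted p = 0.027). Without SCI 3, sham 1 and sham 2 it was -0.10.

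Pmvk and Mvd act after mevalonate kinase. Pmvk, the phosphomevalonate kinase, had 5.81, 5.73, 5.88 and 5.83 in SCI cord, against 6.31, 6.74, 6.40 and 6.61 in sham cord. The SCI arrays were within 0.14 of each other, and all were below the sham arrays. Pmvk fell by 0.70 (SE 0.11, adjusted p = 0.0023). Mvd, the decarboxylase that forms isopentenyl diphosphate, had 4.65, 4.90, 4.91 and 4.69 in SCI cord, against 5.64, 5.48, 5.21 and 5.26 in sham cord. The groups lay apart by 0.30 at their nearest arrays. Mvd fell by 0.61 (SE 0.12, adjusted p = 0.0075), but not without SCI 3, sham 1 and sham 2 (-0.49, adjusted p = 0.079).

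Idi1 and Fdps, which turn the isoprene unit into farnesyl diphosphate, had larger falls. Idi1, the isomerase that makes the allylic primer dimethylallyl diphosphate, had 4.92, 4.17, 4.77 and 5.17 in SCI cord, against 6.28, 6.53, 6.25 and 6.76 in sham cord. SCI 2 was the lowest array, and the SCI spread was the widest of the 8 genes (SD 0.42, n = 4). Idi1 fell by 1.70 (SE 0.20, adjusted p = 4.0e-04), to 30.9% of sham signal.

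Fdps, the farnesyl diphosphate synthase, had 5.84, 5.94, 5.20 and 6.13 in SCI cord, against 7.16, 7.47, 7.04 and 7.36 in sham cord. SCI 3 was the lowest array, and the highest SCI array was 0.92 below the lowest sham array. Fdps fell by 1.48 (SE 0.18, adjusted p = 5.7e-04). The relatives Idi2 (-0.20, adjusted p = 0.22), Idi2l2 (-0.35, adjusted p = 0.30) and the pseudogene Fdps-ps4 (0.10, adjusted p = 0.83) had probe sets of their own and did not pass. Whether probes of Idi1 or Fdps take up signal of such relatives was not tested.

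At the branch, Fdft1 and Ggps1 use the same substrate. Fdft1, the squalene synthase, had 7.22, 6.89, 6.89 and 7.28 in SCI cord, against 8.79, 8.57, 8.81 and 8.96 in sham cord. Its nearest arrays of the 2 groups were 1.29 apart, the widest gap of the 8 genes. Fdft1 fell by 1.71 (SE 0.13, adjusted p = 2.5e-05), a 3.28-fold lower signal, and no gene of the 18166 had a more negative change. Ggps1, which adds an isoprene unit to farnesyl diphosphate, had 5.15, 5.06, 5.13 and 5.18 in SCI cord, against 5.36, 5.42, 5.40 and 5.47 in sham cord. All SCI arrays were below all sham arrays, by 0.17 at the nearest, with SDs of 0.05 in both groups. The difference of -0.28 (SE 0.08, 95% confidence interval -0.47 to -0.09) did not pass (adjusted p = 0.051). It passed after centring arrays on their medians (adjusted p = 0.034), with quantile normalization (0.040) and with dim genes left out (0.013), but with none of the 8 arrays left out in turn (0.060 to 0.13).

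**Figure D2:**
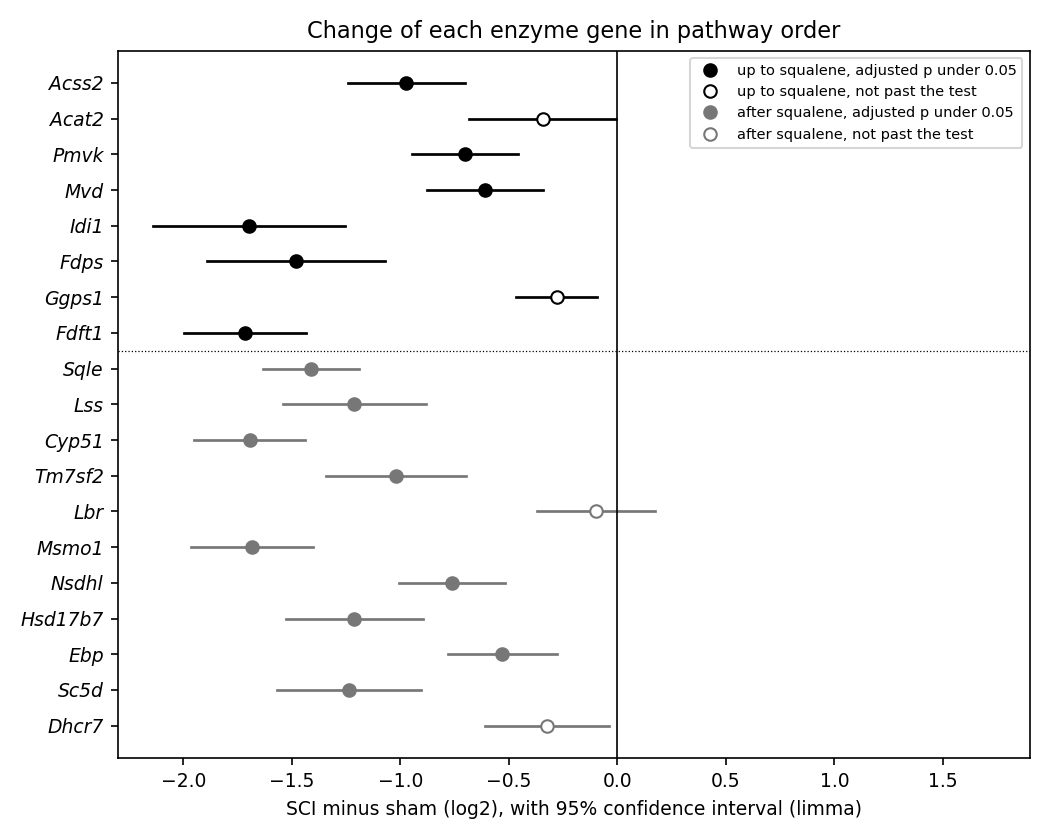
SCI minus sham (log2, horizontal axis) with 95% confidence intervals for the genes up to squalene (black, above the dotted line) and after squalene (grey), in pathway order from top to bottom. Filled points passed limma at an adjusted p under 0.05. Idi1, Fdps and Fdft1 lie between -1.71 and -1.48, and the earlier genes and Ggps1 between -0.97 and -0.28.

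Whether a gene changed more than Ggps1 was tested on the within-array difference between the 2 genes, by exact two-sided permutation (70 assignments, smallest p 0.029). Of 7 genes, 5 differed from Ggps1 (exact p = 0.029 each, 0.040 adjusted over the 7 tests), all with the larger fall. Fdft1 minus Ggps1 averaged 1.94 ± 0.17 in SCI cord and 3.37 ± 0.15 in sham cord (log2, SD, n = 4 each), a change of -1.44. The corresponding changes were -1.42 for Idi1, -1.20 for Fdps, -0.69 for Acss2 and -0.42 for Pmvk. Mvd (-0.33, exact p = 0.11) and Acat2 (-0.07, exact p = 0.77) did not differ from Ggps1 beyond the spread between arrays. The exact test cannot go below 0.1 without SCI 3, sham 1 and sham 2, where the changes of the 5 genes relative to Ggps1 ran from -1.45 to -0.41. A ratio within an array shows unequal change, not that Ggps1 was constant.

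**Figure D3:**
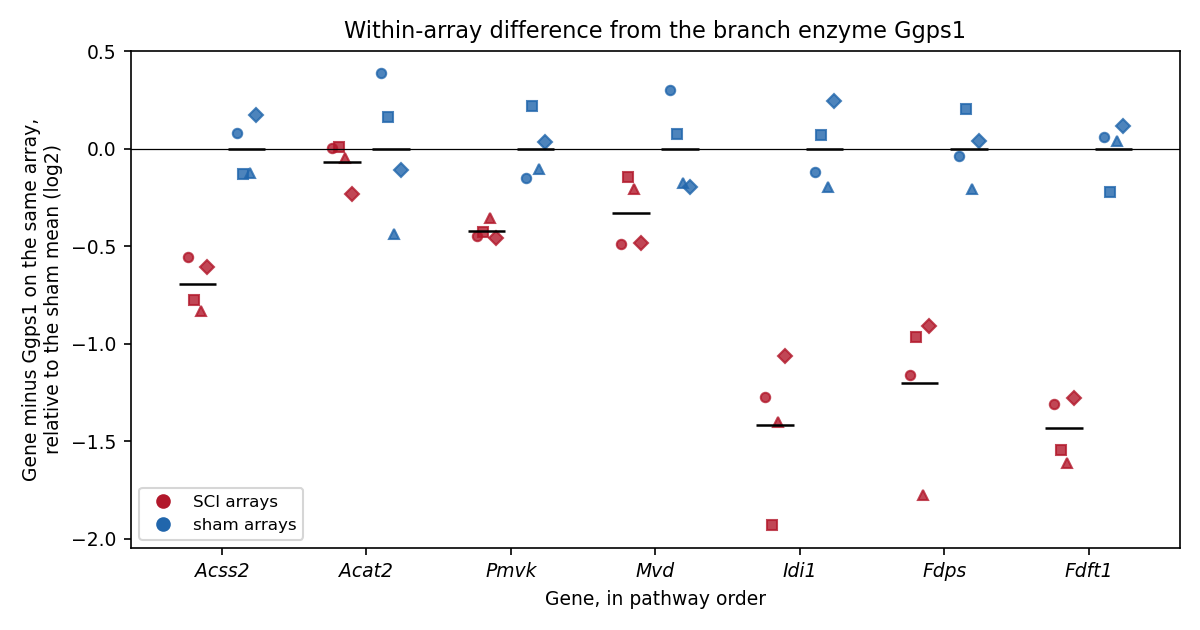
Each gene minus Ggps1 on the same array (log2, vertical axis), set to 0 at the sham mean, for 7 genes in pathway order. Red symbols are SCI arrays, blue symbols sham arrays (shapes as replicates 1 to 4: circle, square, triangle, diamond) and bars group means. SCI and sham arrays overlap in Acat2 and Mvd.

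The same test over all 28 pairs, added after the values were seen, gave 19 unequal pairs (exact p = 0.029 each, 0.042 adjusted over the 28). With 1 array left out, 17 or 18 pairs passed without SCI 1, SCI 4, sham 1 or sham 2. Without SCI 2, SCI 3, sham 3 or sham 4, 13 to 15 pairs had an unadjusted exact p under 0.05 and 0 passed the adjustment (lowest adjusted exact p 0.053 to 0.062). The smallest exact p with 1 array left out is 0.029, so pairs at that p passed or failed together, by their number. Pairs whose groups lay apart on all 8 arrays stayed apart with 1 left out. The count of 0 therefore does not show that the differences rest on these arrays. With all 8 arrays Idi1, Fdps and Fdft1 each differed from all 5 other genes. Among these 3 the differences were 0.22 (Fdps minus Idi1, exact p = 0.60), -0.02 (Fdft1 minus Idi1, exact p = 0.97) and -0.23 (Fdft1 minus Fdps, exact p = 0.31). Acss2 fell more than Acat2, by 0.63 on the log2 scale, and the differences of Pmvk minus Acss2 (0.27, exact p = 0.14) and Mvd minus Acss2 (0.36, exact p = 0.17) did not pass.

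Some arrays recurred at the ends of their group. SCI 2 was the lowest SCI array in 5 of 8 genes (Acss2, Pmvk, Idi1, Ggps1 and Fdft1), and SCI 4 the highest in 4 (Idi1, Fdps, Ggps1 and Fdft1). Among sham arrays, sham 3 was the lowest in 5 and sham 4 the highest in 4. The mean over the 8 genes was 5.71, 5.54, 5.56 and 5.76 on the SCI arrays, against 6.63, 6.67, 6.46 and 6.72 on the sham arrays. Some marker lists had the same 2 arrays at their ends among SCI arrays. The precursor, astrocyte, lymphoid, endothelial, Schwann cell and forebrain lists did not have both there. The means on SCI 2 and SCI 4 were 8.62 and 8.87 for oligodendrocyte and myelin genes and 8.41 and 8.67 for neuron genes, with SCI 2 the lowest and SCI 4 the highest. They were 8.05 and 7.67 for myeloid genes and 8.00 and 7.46 for fibroblast genes, with SCI 2 the highest and SCI 4 the lowest.

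Most oligodendrocyte and neuron markers were lower, like these genes, and most myeloid markers were higher. Over all genes 7.1% were higher and 7.06% lower. Of 15 oligodendrocyte and myelin genes 11 were lower in SCI and 0 higher, with list means of 8.62 to 8.87 on SCI arrays and 9.26 to 9.33 on sham arrays. Among them Fa2h, which hydroxylates myelin lipids, fell by 1.09 (SE 0.11) and Hapln2, a link protein of the node of Ranvier, by 0.93 (SE 0.11). Of 15 neuron genes 14 were lower (list means 8.41 to 8.67 in SCI and 8.99 to 9.11 in sham cord), among them the filament genes Ina (-0.77) and Nefm (-0.62). Of 16 myeloid genes 14 were higher (list means 7.67 to 8.05 in SCI and 6.41 to 6.67 in sham cord), with the smallest p in the lysosomal Cd68 (4.17) and the adaptor Tyrobp (1.89). Without SCI 3, sham 1 and sham 2 the numbers were 7 lower oligodendrocyte, 2 lower neuron and 11 higher myeloid genes. Over all 18166 genes 563 were then higher and 284 lower. The neuron count was 9 without SCI 2 and 9 with all probe sets tested. It was 5 with the second number in the sample title as covariate, which is partly tied to group. No marker had a value of 0, since RMA gives none. Their part in the fall of the pathway genes was not tested. The changes of Idi1, Fdps and Fdft1 were more negative than those of all 15 oligodendrocyte and all 15 neuron markers, whose lowest were -1.16 and -0.77. Whether changes of different probe sets share the same scale was not tested. Acss2 was more negative than 13 of the 15 oligodendrocyte markers, Pmvk than 10, Mvd than 8, Acat2 than 4 and Ggps1 than 3. Of the 15 neuron markers the numbers were 15 for Acss2, 13 for Pmvk, 10 for Mvd, and 1 each for Acat2 and Ggps1.

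The other lists stand beside the same shares over all genes, 7.1% higher and 7.06% lower. A list of 8 or 10 genes with 1 called is near those shares. Of 7 fibroblast genes 4 were higher, among them Igf2 (1.44) and Col1a2 (1.00), and 0 lower. Their list means were 7.46 to 8.00 in SCI and 6.57 to 7.06 in sham cord. The oligodendrocyte precursor list was split, with 3 of 10 genes higher and 3 lower (list means 6.97 to 7.08 in SCI and 6.96 to 7.14 in sham cord). C1ql1, a secreted synaptic protein, was at 0.52, and Enpp6, of newly forming oligodendrocytes, at -1.28. The list thus holds more than 1 stage of the lineage, and which stage changed was not tested. Of 10 astrocyte genes 2 were higher, the filament Gfap (0.81) and the connexin Gja1 (0.59), and 1 lower (list means 8.80 to 8.85 in SCI and 8.66 to 8.75 in sham cord). Of 7 Schwann cell genes 3 were higher, among them Scn7a (1.25) and Pmp22 (0.83), and 1 lower (list means 6.69 to 7.04 in SCI and 6.17 to 6.47 in sham cord). Lymphoid genes were higher in 3 of 10, lower in 0 and not called in 7. Among the higher ones were Cd8a (1.48) and Cd4, which rat macrophages also express (0.95). Which cells carried Cd8a and Cd4 was not tested. The lymphoid list means were 3.40 to 3.54 in SCI and 3.03 to 3.17 in sham cord. Of 8 endothelial and pericyte genes 1 was higher, Cdh5 (0.68), while Flt1 had -0.40 (adjusted p = 0.077; list means 6.08 to 6.16 in SCI and 5.98 to 6.29 in sham cord). Of 3 blood cell genes 1 was higher, Pf4 (1.40), while Hbb-b1 had -0.56 (adjusted p = 0.34; list means 5.72 to 6.83 in SCI and 5.49 to 6.83 in sham cord). The higher genes without SCI 3, sham 1 and sham 2 numbered 2 fibroblast, 0 precursor, 1 astrocyte, 3 Schwann cell, 2 lymphoid, 0 endothelial and 0 blood cell genes, and the lower ones 1 precursor gene and 0 in each of the other 6 lists. The lower astrocyte gene (Slc1a2, a glutamate transporter, named after its value was seen, at -0.39) was also not called without SCI 1, SCI 2, SCI 3, sham 2, sham 3 or sham 4 alone.

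The pathway continues past squalene, and these genes were lower too. Of 11 measured genes 9 fell and 0 rose (median -1.21), against 7.06% of all genes that were lower, and the number that fell was 9 with any 1 array left out and 8 without SCI 3, sham 1 and sham 2. Cyp51, the lanosterol demethylase, fell by 1.69 (SE 0.12, adjusted p = 1.6e-05). Msmo1, the methylsterol oxidase, fell by 1.68 (SE 0.13) and Sqle, the squalene epoxidase, by 1.41 (SE 0.10). Dhcr7, of the last steps, had -0.33 (SE 0.13, adjusted p = 0.13), and Lbr, a sterol reductase that is also a nuclear envelope protein, had -0.10 (adjusted p = 0.69).

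The suppliers and users of the pathway were mixed. Of 9 genes of acetyl-CoA supply and ketone bodies 2 fell and 1 rose (median -0.16), against 7.06% of all genes lower and 7.1% higher. Those that fell were Aacs, the cytosolic acetoacetyl-CoA synthetase (-0.82, SE 0.16, adjusted p = 0.0059), and Acly, which splits citrate into acetyl-CoA (-0.76, SE 0.09, adjusted p = 4.4e-04). Slc16a1, a transporter of lactate and ketone bodies, rose by 0.43 (SE 0.10, adjusted p = 0.018), but not with the number in the sample title as covariate (adjusted p = 0.052), with all probe sets tested (0.056) or without SCI 3, sham 1 and sham 2 (0.16). Without these 3 arrays Aacs had an adjusted p of 0.099, and 1 gene of the list, Acly, passed. Acss3, a mitochondrial relative of Acss2, had 0.30 (adjusted p = 0.19, and 0.030 without SCI 1).

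Of 16 measured genes that use or process farnesyl and geranylgeranyl groups, 1 fell and 0 rose (median -0.15), against 7.06% of all genes lower. It was Nus1, a subunit of the enzyme that makes the dolichol chain (-0.43, SE 0.10, adjusted p = 0.014). With the title number as covariate and without SCI 3, sham 1 and sham 2, Nus1 was at 0.056 and 0.17. Fntb, the beta subunit of protein farnesyltransferase, had -0.34 (adjusted p = 0.062). After centring arrays on their medians 3 of the 16 genes passed, Fntb among them (adjusted p = 0.039).

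Sterol-sensing genes went both ways, 3 of 11 up and 3 down (median -0.08), against 7.1% of all genes higher and 7.06% lower. Insig1, which retains the SREBP complex in the endoplasmic reticulum and is itself a known SREBP target, fell to 6.05 ± 0.29 in SCI cord, against 7.26 ± 0.22 in sham cord (log2, SD, n = 4 each; adjusted p = 7.8e-04, limma). Srebf1, known for driving fatty acid synthesis, rose by 1.72 (SE 0.12, adjusted p = 1.6e-05). Srebf2, known for driving the mevalonate genes, was lower by -0.71 (SE 0.13, adjusted p = 0.0050), and was named after its value was seen. Without SCI 3, sham 1 and sham 2 it was at -0.57 (adjusted p = 0.076), and 1 of the 11 genes, Insig1, was lower. Npc2, which carries cholesterol inside lysosomes, rose by 1.14 (SE 0.10), and Mbtps2, a protease that releases SREBP, had -0.20 (adjusted p = 0.28).

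Of 9 genes of the oxysterol receptors, their known targets and sterol hydroxylases 7 rose and 0 fell (median 0.73), against 7.1% of all genes higher. Abca1 and Abcg1, exporters of cholesterol, rose by 2.85 (SE 0.14) and 0.87 (SE 0.13), and Apoe, a lipoprotein that carries it, by 1.88 (SE 0.10). Nr1h2, one of the receptors, had 0.12 (adjusted p = 0.41). Without SCI 3, sham 1 and sham 2 the number that rose was 5, against 563 higher of all 18166 genes. These lists were set beside myeloid markers that were higher on the same arrays, and the part of those cells was not tested.

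**Figure D4:**
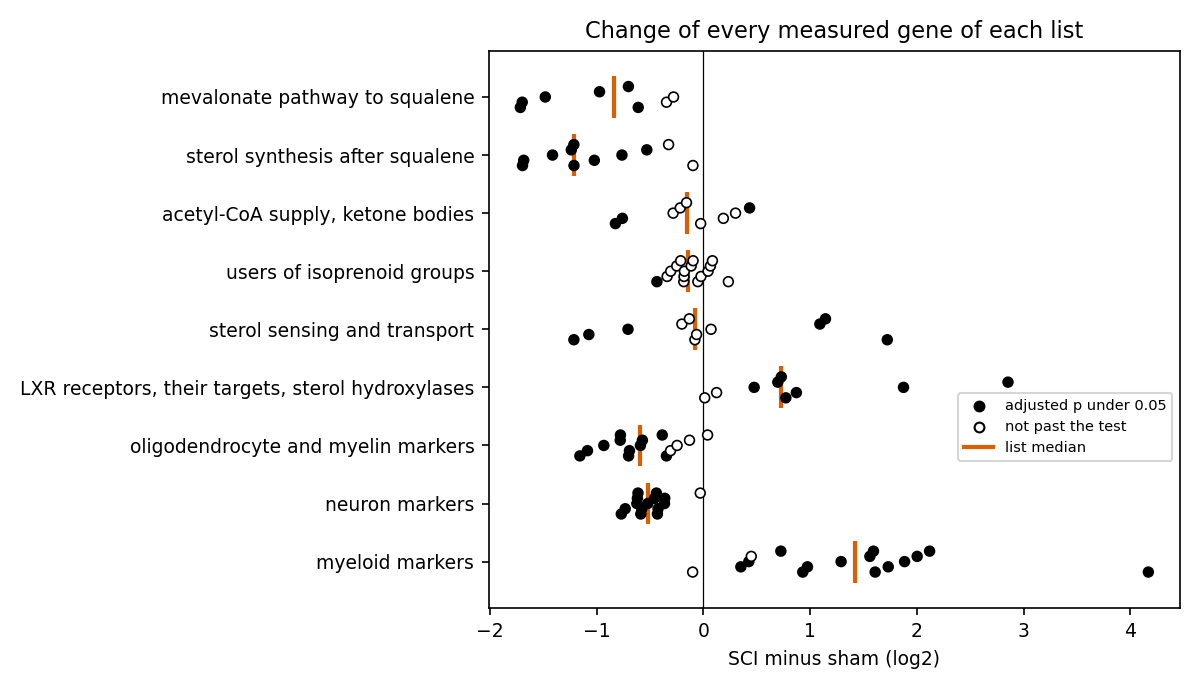
SCI minus sham (log2, horizontal axis) of every measured gene of the pathway, 5 related lists and 3 marker lists. Filled points passed limma at an adjusted p under 0.05, and orange bars are list medians. The medians are -0.84 for the pathway to squalene, -1.21 after squalene and -0.15 for users of isoprenoid groups.

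The 5 other genes whose array pattern was nearest to the mean of the 8 pathway genes were Rapgef4, Tubb2b, Hapln2, Tmem163 and Pcp4. Likeness was the root mean square difference over the 8 arrays, with each gene set to 0 at its sham mean. It was 0.09 to 0.13 for these 5, against a median of 0.71 over 18158 genes. Their changes were -0.97, -0.92, -0.93, -0.82 and -0.86. The measure takes in the size of a change, so falls near the members' mean fall followed from the choice. Genes with larger falls, such as Cyp51 (-1.69), were set further off by that size. None of the 5 is on the sterol lists, which therefore says nothing of a shared pattern. Hapln2 is on the oligodendrocyte and myelin list.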

How the data were processed

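Spinal cord RNA was measured on 8 arrays, 4 SCI and 4 sham by the labels. Affymetrix Expression Console and RMA produced the deposited log2 values, per the submitters' processing notes (RMA corrects background, normalizes between arrays and summarises probes). That the scale is log2 was inferred from RMA and the range of values. No version, setting or genome build is named. Of 36685 probe sets, 18511 have 1 annotated symbol, 575 several and 17599 none here. For repeated symbols the probe set with the highest mean was kept, leaving 18166 genes. The groups were tested by limma 3.58.1 under R 4.3.3 (lmFit, eBayes, Benjamini-Hochberg adjustment over all genes). The procedure was also run on simulated data with independent noise and fewer changed genes than were called here. That run is not used to judge these calls. Called means an adjusted p under 0.05. In all 14.2% of genes were called, and 4850 had an unadjusted p under 0.05. The members, lists and tests were chosen with earlier results of these data known. Named were all members, the 3 largest called changes without overlap and the largest uncalled one of each related list, the 2 smallest p of each marker list, and the 5 genes most like the members. Lbr, Srebf2 and Slc1a2 were added after their values were seen. Alternatives were other scalings, filters, probe set rules, variance models, a covariate and leaving arrays out. The covariate was the second number in the sample title, 4, 6, 7 and 8 for SCI and 5, 9, 10 and 11 for sham. It runs partly with group, so a call lost under it cannot be put down to either. The first number in the title, 1 to 4 for SCI and 5 to 8 for sham, parts the groups fully. Promoter sequences are from RefSeq (GRCr8).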

Additional observations from a re-analysis of the deposited data

Results flagged for a closer look

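In 3 of 112 groups of 4 arrays, those of the named genes, 1 array lay far from the other 3 relative to the range (past Dixon's critical value for 4 samples), and chance gives about 1 in 20. None of the 16 groups of the measured pathway genes was among them. Igf2 on SCI 2 was 8.90, against 8.35 to 8.40 on the other SCI arrays (0.899 of the range). Pmp22 on sham 2 was 9.98, against 9.74 to 9.78 on the other sham arrays (0.850). Slc16a1 on sham 2 was 7.48, against 7.73 to 7.78 (0.853).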

How the results depend on the processing

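The 6 pathway genes that fell numbered 5 to 7 under all 16 alternatives: 6 to 7 with 1 array left out, 7 with arrays centred on their median, quantile normalized or with dim genes left out, and 5 without SCI 3, sham 1 and sham 2, a setting chosen after seeing the data. Acss2, Pmvk, Idi1, Fdps and Fdft1 passed under each of the 16, with Fdft1 between -1.78 and -1.65. Mvd lost its call without the 3 arrays, Acat2 gained one without sham 3, and Ggps1 gained one under 3 settings. Genes called in the related lists numbered 26, 25 to 27 with 1 array left out and 18 without the 3 arrays. With the title number as covariate they numbered 23, and with all probe sets tested 24. Median centring and the trended, robust variance model gave 28 each. The count of 5 genes unequal to Ggps1 was 5 with quantile normalization and with any 1 array left out (35 assignments, smallest exact p 0.029). Centring cancels in that difference. The difference between Acat2 and Ggps1, which is not a called one, ran from -0.21 to 0.06 with 1 array left out, and was 0.20 without the 3 arrays. Over all genes 1290 were higher and 1282 lower, against 813 and 543 with the title number as covariate, 923 and 780 without SCI 2, 563 and 284 without the 3 arrays, and 1028 and 838 among 36685 probe sets. The causes were not tested. No paired analysis was possible because the groups share no replicate numbers in the labels. No background level was used, so how far the dimmer signals (Mvd, Acat2, Ggps1, and Idi1 in SCI cord) lay above background was not tested.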
